A study of Mus musculus with 3 samples.

Results

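*Ltf*+ epithelial cells without *Kit* transcript were singled out from single-cell RNA-sequencing of the adult mouse lacrimal gland (LG), the gland that makes the watery layer of the tear film. A barcode belonged to this population when it held at least 2 unique molecular identifiers (UMIs, 1 per captured transcript) of *Ltf*, at least 2 UMIs in all of 5 further genes (*Dmbt1*, *Fcgbp*, *Sftpd*, *F5* and *Ccl9*), no UMI of *Kit*, and none of *Ptprc*, *Pecam1* or *Col1a1*, which mark leukocytes, endothelial cells and fibroblasts. Of 19592 barcodes kept over 3 libraries, 625 (3.19%) met the rule. The members were thus chosen by the UMI counts of these 10 genes, whose levels are described here and never tested.

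The study sequenced dissociated LGs of C57BL/6J mice aged 2 months, without any treatment. There was 1 library from females and there were 2 from males, and every library pooled the 6 glands of 3 mice. The mice of a pool cannot be separated, and the female library differs from both male ones in its sequencing core and day. Sex can therefore not be told apart from core or day, and it was not tested. Throughout, values are given in the order female, male 1, male 2.

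*Ltf* encodes lactotransferrin, an iron-binding protein that starves bacteria in milk, saliva and tears. *Sftpd* and *Dmbt1* encode proteins that bind microbes, *Fcgbp* a mucus protein, *F5* a coagulation factor and *Ccl9* a chemokine. In exocrine glands, acinar cells secrete most of the protein and ducts modify and carry the fluid. *Kit* encodes the receptor for stem cell factor and is used to mark progenitors in several glandular epithelia. The members are the *Ltf*+ cells in which its transcript was not detected.

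The libraries held 9737, 6422 and 6899 called barcodes with 63066640, 40609390 and 44661762 UMIs. Barcodes with over 500 UMIs, over 200 genes and under 15% mitochondrial UMIs numbered 8298, 5582 and 5712. Transcripts of secreted tear proteins, such as odorant-binding proteins and secretoglobins, made up 78.8%, 83.4% and 83.6% of the UMIs in barcodes not called as cells. This free RNA is present in every cell type, so levels below are given as CPM, meaning UMIs per 1000000 UMIs outside 104 tear-product genes. No barcode was shared between the members of any pair of libraries.

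The members were rare in the female library and common in the male ones. They made up 46 of 8298 kept barcodes in the female library (0.554%, exact binomial 95% interval 0.406 to 0.739%), 279 of 5582 in male 1 (5.00%, 4.44 to 5.60%) and 300 of 5712 in male 2 (5.25%, 4.69 to 5.86%). The male shares lay close together and the female share was far below both. With scored doublets removed the members were 21 of 7652 (0.274%, 0.170 to 0.419%), 268 of 5295 (5.06%, 4.49 to 5.69%) and 287 of 5397 (5.32%, 4.73 to 5.95%). With every cell thinned to 1000 UMIs before the rule was applied they were 80 of 8092 (0.989%, 0.785 to 1.23%), 248 of 5312 (4.67%, 4.12 to 5.27%) and 237 of 4962 (4.78%, 4.1996 to 5.41%). These intervals cover counting error only, and dissociation and capture can also set such shares.

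*Kit* divided the *Ltf*+ cells unevenly. Cells that passed every other criterion but held a *Kit* UMI numbered 51, 79 and 63, so *Kit* was detected in 52.6% (42.2 to 62.8%) of the female *Ltf*+ cells, 22.1% (17.9 to 26.7%) of those of male 1 and 17.4% (13.6 to 21.7%) of those of male 2. Detection was higher in the deeper part of the *Ltf*+ cells of each library, split at the median UMI count. From the shallower to the deeper part it went from 43.8% (29.5 to 58.8%) to 61.2% (46.2 to 74.8%) in the female library. In male 1 it went from 17.3% (12.1 to 23.7%) to 26.8% (20.5 to 33.9%). In male 2 it went from 12.2% (7.78 to 17.8%) to 22.5% (16.7 to 29.3%). Within each library the intervals of both parts overlap. With every cell thinned to 1000 UMIs before the rule was applied, *Kit* was detected in 9 of 89 *Ltf*+ cells of the female library (10.1%, 4.73 to 18.3%), in 22 of 270 of male 1 (8.15%, 5.18 to 12.1%) and in 20 of 257 of male 2 (7.78%, 4.82 to 11.8%), and these intervals overlap. A cell without a *Kit* UMI may therefore still transcribe the gene at a level this depth did not catch. Of the 193 *Kit*+ cells, 135 held just 1 *Kit* UMI and 58 held more.

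Close to the other edges of the rule, 20 members held exactly 2 *Ltf* UMIs, while 41 cells with 1 and 200 with none met all else. For the sum over the 5 genes, 38 members sat at 2 UMIs, and 49 cells with 1 and 69 with 0 lay just outside. The ban on stromal transcripts removed 17 cells with 1 such UMI and 4 with more.

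Within the members, *Ltf* was abundant and the 5 other genes were patchy. The median member held 62, 18 and 20 *Ltf* UMIs, up to 895, 150 and 212 in single cells. *Sftpd* was detected in 89.1%, 93.2% and 88.7% of them and *Dmbt1* in 78.3%, 60.6% and 66.0%. *F5* was found in 89.1%, 50.5% and 49.0%, and all 5 genes together in 22, 49 and 56 cells. The median UMI count per member was 6948, 2393 and 2215, and the female members were thus the most deeply sampled.

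On the CPM scale *Ltf* stood at 16091, 13998 and 16005 in the members. It was at 23367, 19375 and 21964 in the *Kit*+ cells, at 30.2, 82.3 and 105 in duct cells and at 12.0, 52.7 and 73.6 in acinar cells. Free RNA held it at 417, 2309 and 1874 CPM. The level in members lay above free RNA in each library, and the acinar and duct levels lay below it. *Ltf* is part of the rule for members. The acinar and duct gates limit the further genes of that rule but not *Ltf* itself. Single acinar cells held up to 3, 15 and 8 *Ltf* UMIs. Selection on *Ltf* thus shaped the level in members, and this order is no test of signal above background. *Kit* itself was at 219, 471 and 496 CPM in the *Kit*+ cells.

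**Figure D1:**
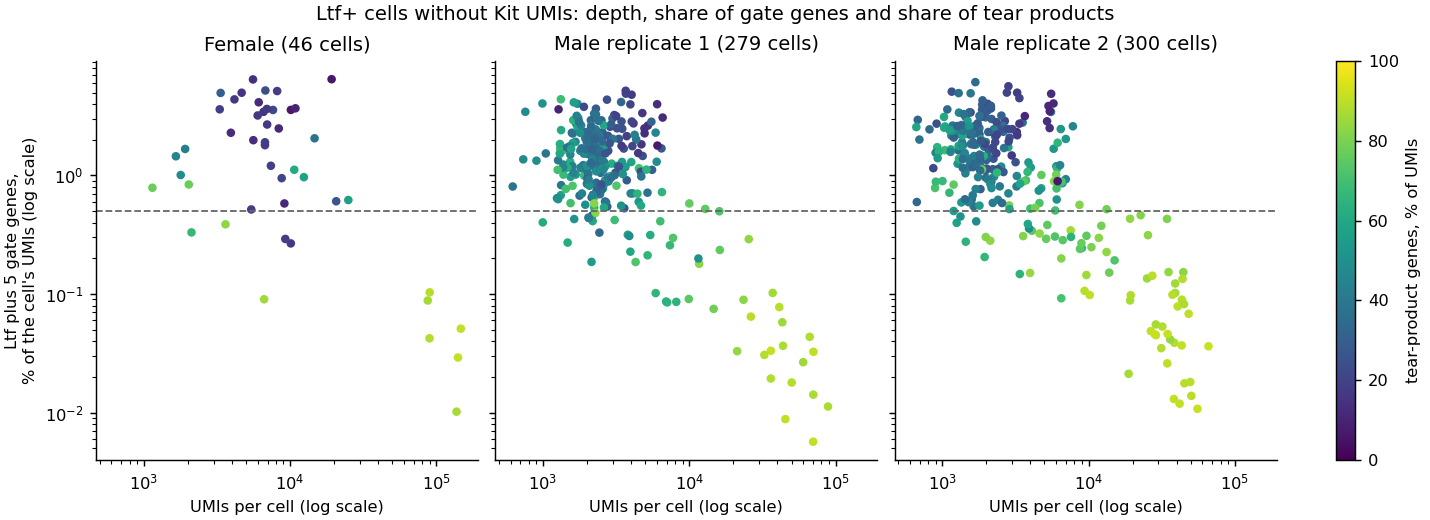
Each point is 1 member, by its UMI count (log axis) and the percent of its UMIs from *Ltf* and the 5 further genes of the rule (log axis), with 1 panel per library and the percent of tear-product UMIs as colour. The dashed line marks 0.5%, and the 132 members under it include the deepest cells, which are rich in tear products.

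The population was not uniform. In 132 members (11, 49 and 72), *Ltf* and the 5 genes together gave less than 0.5% of the cell's UMIs. These cells were deep, with a median of 87244, 9910 and 19018 UMIs, and tear products took 86.1%, 72.9% and 83.5% of their UMIs, close to the 87.7%, 85.1% and 87.6% of acinar cells. The other 493 members (35, 230 and 228) had a median of 6726, 2296 and 1881 UMIs, of which tear products took 18.2%, 40.3% and 38.9%. The low-share cells were the smaller group yet held 72.8%, 63.3% and 73.5% of all member UMIs.

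Acinar markers followed the same division. The summed acinar markers (*Pigr*, *Prom2*, *Bhlha15*, *Lpo*, *Lcn11* and *Cyp2b10*) reached 19967, 24405 and 22387 CPM in the low-share members, against 1823, 3343 and 3552 in the others. In acinar cells they were at 25270, 36452 and 31985, and in leukocytes, which should lack them, at 1509, 4383 and 4542. The 493 members above the 0.5% line were thus near the leukocyte level and the 132 under it nearer the acinar one. The doublet score described with the other markers took 3, 6 and 6 of the low-share cells, and its part in their profile was not tested. Because they weigh heavily in every sum, named results whose call changes without them are given both ways.

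Markers of acinar cells high in *Car6* (*Car6*, *Dnase1*, *Kcnn4*, *Lrrc26* and *Folr1*) summed to 5634, 5673 and 4332 CPM in members, against 26156, 10370 and 8566 in acinar cells and 2507, 2034 and 1715 in leukocytes. They were at 2392, 3473 and 2995 in the members above the 0.5% line and at 12419, 10560 and 6365 in those under it.

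Markers of leukocytes, fibroblasts and endothelial cells were low, in sums to which *Ptprc*, *Col1a1* and *Pecam1* add nothing in members because the rule set them to 0. The summed leukocyte markers were at 57.5, 33.5 and 122 CPM, with 5 of 8 detected and *Ptprc*, *Cd3g* and *Trbc2* at 0, while leukocytes ranged from 9185 to 11694 CPM. The fibroblast sum was at 47.3, 29.8 and 90.2 against 30296 to 40396 in fibroblasts, and the endothelial sum at 40.6, 31.7 and 16.9 against 8059 to 10507 in endothelial cells. Duct markers, a list that holds *Krt5* and *Krt14*, summed to 815, 209 and 400 CPM, compared with 8897, 11713 and 12457 in duct cells. A doublet score marked 25 of the 46 female members but 11 of 279 and 13 of 300 male ones. In the female library it also marked 29 of 51 *Kit*+ cells, but 17 of 757 duct and 15 of 436 acinar cells. Over all libraries it marked 33 of 193 *Kit*+ cells. The member gate without its stromal criteria was met by 5 of 1304 leukocytes, 1 of 620 endothelial cells and 2 of 1985 fibroblasts.

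A high mitochondrial share was more frequent in members than in duct and acinar cells. A share of at least 5% was found in 41.3%, 52.3% and 44.7% of them, against 9.78%, 3.90% and 1.52% of duct cells and 23.4%, 31.6% and 25.1% of acinar cells. In the *Kit*+ cells it was found in 45.1%, 50.6% and 57.1%. The part this plays in the comparisons was not tested beyond a limit of 10%, which is among the alternative settings.

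Single-cell detection was compared after each cell was thinned to 1000 UMIs, which left 46, 273 and 287 members. *Wfdc18*, a secreted whey-acidic-protein gene, was found in 97.0% ± 1.27 of members (SD, n = 3 libraries), in 81.8% ± 7.62 of duct cells and in 10.1% ± 1.27 of acinar cells. Leukocytes, which should lack it, showed it in 25.3% ± 13.6. Tear products took a median of 87.7%, 85.1% and 87.6% of acinar UMIs and 25.3%, 45.6% and 42.9% of leukocyte UMIs, so the thinned acinar cells held fewer UMIs of other genes and these shares are not at equal depth. *Krt18*, a simple-epithelial keratin, was found in 64.3% ± 4.39 of members, 17.3% ± 3.30 of duct cells and 10.6% ± 2.51 of acinar cells. The basal keratins *Krt14* and *Krt5* were found in 2.75% ± 1.47 and 2.16% ± 1.89 of members, while both were part of the duct gate and common there.

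*Pglyrp1*, which encodes a peptidoglycan-binding antibacterial protein, was detected in 30.0% ± 9.15 of thinned members. It was found in 1.35% ± 0.291 of duct cells, 0.0785% ± 0.0743 of acinar cells and 0.910% ± 0.794 of leukocytes. *Cxcl17*, a mucosal chemokine, was in 30.3% ± 4.07 of members and in 4.62% ± 0.490 of duct cells. *Slc12a2*, the Na-K-2Cl cotransporter that loads chloride into secretory cells, was in 19.9% ± 0.328 of members and 0.440% ± 0.763 of duct cells. *Agr2*, a protein-folding enzyme of mucus-secreting cells, was in 33.4% ± 7.29 of members but also in 17.6% ± 5.03 of leukocytes. The part of background in its detection was not tested. *Sox10* was in just 1.89% ± 1.41 of members.

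**Figure D2:**
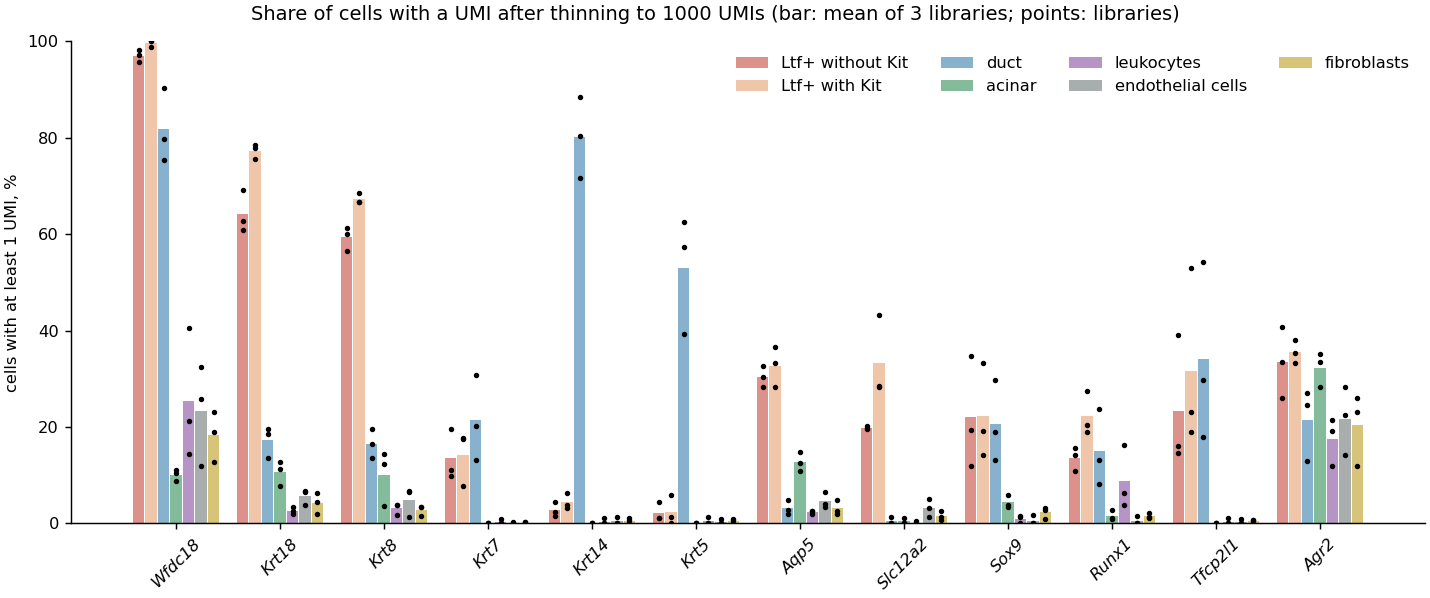
Percent of cells with at least 1 UMI of each gene after thinning to 1000 UMIs, with bars for the mean of 3 libraries, points for libraries and colours for 7 cell groups. *Krt18* is in 64.3% of members and 10.6% of acinar cells, and the bars of leukocytes, endothelial cells and fibroblasts show detection in cells gated on stromal transcripts.

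Of 4 comparisons, 3 ask how the members differ from other epithelial cells of the same suspension, and the last how they differ among themselves. UMIs were summed per library and cell group, giving 3 pairs, and tested by edgeR's quasi-likelihood method with a term for the library. Adjusted p-values are Benjamini-Hochberg values across every gene of the fit. Log2 fold changes are positive where the members are higher. Each library is a pool, so the p-values measure the spread between 3 libraries, 2 of them male. Genes that define either gate were left out of the tests, and the members are the same cells in all 3 comparisons with other groups.

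Duct cells (757, 77 and 66) were taken as barcodes with *Wfdc2* and with *Krt5*, *Krt14*, *Krt17*, *Gpha2* or *Ly6d*. They held under 2 UMIs in all of the 5 further genes of the member rule, with no limit on *Ltf*. In the duct sums of male 1 and male 2, 1 UMI equals 13.7 and 20.9 CPM, so low values there rest on few UMIs. Of 5602 genes tested, 743 (13.3%) were higher in the members and 703 (12.5%) lower at an adjusted p under 0.05. Among the genes higher in members were *Pglyrp1*, *Wfdc18*, *Cxcl17*, *Slc12a2*, *Ano1*, *Aqp5*, *Krt8* and *Krt18*, and every gene of the dissociation stress list was lower. The median of all genes was at a log2 fold change of 0.04, and at -0.99 when sums were scaled to total UMIs without TMM, which gave 168 higher and 2581 lower genes. Without the female library edgeR called 783 genes in place of 1446.

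In the mucosal defence list, 5 of 7 tested genes were higher than in duct cells and none lower. *Pglyrp1* was at 446, 804 and 772 CPM in members against 10.1, 13.7 and 41.8 in duct cells. It rose by a log2 fold change of 5.53 ± 0.27 (SE, edgeR adjusted p = 1.2e-07), with no overlap between the groups. *Wfdc18* was at 122442, 96849 and 92173 against 20306, 13880 and 12060 CPM (2.97 ± 0.28, adjusted p = 1.3e-05). All 3 member values lay above all 3 duct values in both genes. *Cxcl17* was at 504, 531 and 560 against 73.6, 151 and 83.6 CPM (2.74 ± 0.22, adjusted p = 4.4e-06). *Lcn2*, an iron-siderophore binder, did not pass the test (-0.52 ± 0.18, adjusted p = 0.055).

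*Pigr*, the receptor that carries IgA across epithelia, and *Agr2* made up the rest of the 5, and both rest on the low-share members. *Pigr* was at 281, 156 and 222 CPM against 73.1, 54.9 and 0 (2.20 ± 0.28, adjusted p = 0.00014), but stood at -0.21 (adjusted p = 0.80) once members and *Kit*+ cells needed 0.5% of their UMIs from the *Ltf*+ genes. Under that gate *Agr2* moved from 1.59 to 0.55 (adjusted p = 0.094), while *Pglyrp1* was at 5.68 and *Cxcl17* at 3.01, both still past the threshold.

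Of the fluid and ion transport list, 9 of 17 tested genes were higher in members than in duct cells and 1 was lower, and 7 and 2 of 14 under the 0.5% gate, where 427 of all 3430 genes were higher and 545 lower. Scaled to total UMIs the list split into 9 higher and 8 lower. *Slc12a2* was at 433, 369 and 402 CPM against 27.0, 13.7 and 0 (4.29 ± 0.26, adjusted p = 6.0e-07). *Ano1*, the calcium-gated chloride channel of secretory cells, was at 135, 115 and 118 against 4.57, 13.7 and 0 CPM (4.89 ± 0.42, adjusted p = 5.9e-06). *Aqp5*, the apical water channel, was at 686, 789 and 836 against 45.2, 110 and 167 CPM (3.64 ± 0.27, adjusted p = 2.8e-06). In these genes all 3 member values lay above all 3 duct values.

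*Kcnn4*, a calcium-gated potassium channel, was at 122, 132 and 109 CPM in members and at 5.03, 0 and 0 in duct cells (4.83 ± 0.42, adjusted p = 6.7e-06). *Lrrc26*, an accessory subunit of the BK channel, was at 575, 495 and 511 against 73.1, 151 and 62.7 CPM (2.89 ± 0.25, adjusted p = 5.7e-06). *Kcnh1*, a voltage-gated potassium channel, had no UMI in members and was at 72.2, 54.9 and 104.5 CPM in duct cells, from 158, 4 and 5 UMIs. *Aqp3*, a basolateral water and glycerol channel, fell by 3.76 ± 0.45 on the log2 scale (adjusted p = 7.4e-05) from 188, 68.6 and 83.6 CPM in duct cells to 16.9, 1.86 and 3.76.

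The keratins *Krt8* and *Krt18* were higher in the members than in duct cells, and *Krt15* and *Krt7* were lower. *Krt8* was at 1237, 1981 and 2036 CPM in members against 310, 247 and 376 in duct cells (2.54 ± 0.21, adjusted p = 4.3e-06), and *Krt18* at 2004, 2811 and 2654 against 326, 343 and 564 (2.82 ± 0.19, adjusted p = 9.8e-07). *Krt15*, a basal keratin, was at 10.1, 0 and 3.76 against 161, 165 and 167 CPM and fell by 5.13 ± 0.56 on the log2 scale (adjusted p = 4.1e-05). *Krt7* was lower by a smaller amount (-0.64 ± 0.17, adjusted p = 0.017). Of the 5 tested genes of the keratin list, which does not hold *Krt15*, 3 were higher and 1 lower, or 3 and 2 under the 0.5% gate and with total-UMI scaling. *Krt7* was at -0.59 (adjusted p = 0.035) under the gate.

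Junction genes split as well, with 5 of 11 higher and 2 lower, and with 2 higher and 4 lower when scaled to total UMIs. *Cldn3* was at 375, 534 and 473 CPM against 83.6, 110 and 41.8 (2.48 ± 0.22, adjusted p = 6.7e-06). *Cldn4* went the other way, at 37.2, 18.6 and 9.39 against 189, 137 and 188 CPM (-2.72 ± 0.37, adjusted p = 0.00020). The desmosomal plakin *Dsp* was also lower (-0.83 ± 0.21, adjusted p = 0.012).

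Of 15 tested genes of the list of progenitor and duct regulators, 4 were higher (*Tspan8*, *Ehf*, *Elf5* and *Etv1*) and 4 lower (*Tfcp2l1*, *Nfib*, *Elf3* and *Krt15*). All are transcription factors but the tetraspanin *Tspan8* and the keratin *Krt15*. With total-UMI scaling 2 genes of the list were higher and 10 lower. *Sox9*, a factor needed for LG development, was at 402, 372 and 280 CPM in members and 543, 480 and 230 in duct cells (-0.10 ± 0.19, adjusted p = 0.76). *Runx1* was at 338, 276 and 235 against 367, 219 and 251 (0.18 ± 0.18, adjusted p = 0.53), and *Pax6*, the eye-field factor, at 324, 266 and 284 against 511, 357 and 230 (-0.22 ± 0.20, adjusted p = 0.49). The values of these 3 factors overlapped between the groups, which does not show that they are equal. *Tfcp2l1*, a factor of kidney and salivary ducts, was lower (581, 294 and 254 against 1058, 795 and 397 CPM, -0.82 ± 0.19, adjusted p = 0.0070). *Elf5*, an ETS factor of secretory epithelia, was higher (64.2, 87.5 and 86.4 against 6.86, 27.4 and 0 CPM, 3.21 ± 0.49, adjusted p = 0.00044), as was its relative *Ehf* (0.86 ± 0.19, adjusted p = 0.0058, and at -0.098 with total-UMI scaling).

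**Figure D3:**
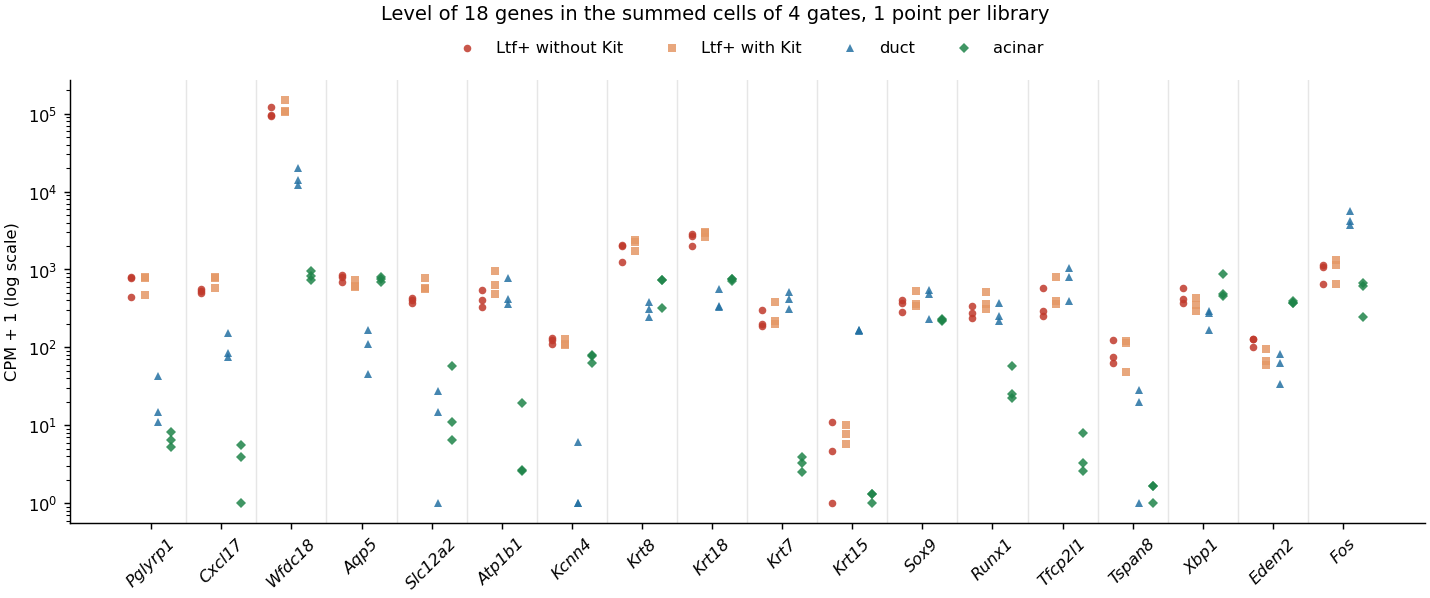
Level of 18 genes as CPM + 1 (log axis) in members, *Kit*+ cells, duct cells and acinar cells, where each point is the summed cells of 1 library. *Pglyrp1* and *Slc12a2* lie far above duct and acinar cells in both *Ltf*+ groups, and *Sox9* overlaps between members and duct cells.

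All 16 genes of the dissociation stress list were lower in members than in duct cells, and all 16 were so under the 0.5% gate, after thinning and with total-UMI scaling. *Fos* was at 649, 1143 and 1061 CPM against 5657, 4142 and 3700 (-2.07 ± 0.25, adjusted p = 8.2e-05). *Egr1* was at 186, 233 and 220 against 2872, 1975 and 1359 (-3.05 ± 0.24, adjusted p = 3.4e-06), and the heat-shock gene *Hspa1a* at 223, 324 and 426 against 1016, 1207 and 941 (-1.58 ± 0.21, adjusted p = 0.00015). These genes respond within minutes to tissue digestion, so state in the gland and response to dissociation cannot be told apart.

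Of 7 chemokines and epithelial cytokines tested, 1 was higher and 3 were lower, and of 9 antigen presentation genes none was higher and 2 were lower. *Cxcl1*, a neutrophil chemokine, was lower, at 6.76, 65.2 and 50.7 against 236, 274 and 314 CPM (-2.63 ± 0.36, adjusted p = 0.00020). *Ccl28*, which attracts IgA-secreting plasma cells, was higher, at 60.8, 98.7 and 109 against 15.5, 27.4 and 0 CPM (2.27 ± 0.42, adjusted p = 0.0016). *B2m*, the light chain of MHC class I, was lower (331, 398 and 425 against 805, 439 and 773 CPM, -0.64 ± 0.21, adjusted p = 0.042). Of 15 nuclear genes of oxidative phosphorylation 4 were higher and none lower, or none and 9 with total-UMI scaling.

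Of 10 iron genes tested, 4 were higher and 1 lower, or 2 and 2 with total-UMI scaling. The ferritin heavy chain *Fth1* was at 3998, 5645 and 5032 CPM against 3122, 3689 and 4724 (0.55 ± 0.17, adjusted p = 0.035), and its value turned negative with total-UMI scaling. *Cp*, the ferroxidase ceruloplasmin, was at 125, 54.0 and 60.1 against 714, 507 and 397 CPM (-2.59 ± 0.21, adjusted p = 4.3e-06). Among 17 redox genes 7 were higher and 3 lower, or 2 and 6 with total-UMI scaling. *Gstm1*, a glutathione transferase, was at 936, 1160 and 597 CPM against 244, 274 and 167 (2.15 ± 0.18, adjusted p = 4.5e-06), and catalase (*Cat*) was lower (-1.57 ± 0.29, adjusted p = 0.0015).

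Further genes were named by the size of their change. *Cyp2a5*, a cytochrome P450, was at 3518, 1480 and 1052 CPM in members and 30.2, 13.7 and 0 in duct cells (7.06 ± 0.27, adjusted p = 3.8e-08). *Enpep*, a surface aminopeptidase that cuts angiotensin, was at 193, 196 and 205 against 2.29, 0 and 0 CPM, and *Sult1d1*, a sulfotransferase, at 193, 171 and 124 against 3.20, 13.7 and 0. *Sv2b* (48 UMIs) and *Cidea* (76 UMIs) were seen in members of every library with no UMI in duct cells. In the other direction *Wnt10a*, *Sostdc1*, *Kcnh1*, *Casp4*, *Ptn* and *Dio2* had 118 to 189 UMIs in duct cells and none in members. The female library held most of these UMIs, and each male library held 1 to 9 per gene. *Sostdc1*, a secreted modulator of BMP and Wnt signals, was at 68.6, 54.9 and 62.7 CPM in the duct cells, from 150, 4 and 3 UMIs.

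Acinar secretory machinery was higher than in duct cells for 12 of 16 genes, but for only 3 of 14 under the 0.5% gate, and the split was 2 higher and 2 lower with total-UMI scaling. *Xbp1*, a factor of the secretory pathway, was at 571, 415 and 368 against 165, 274 and 293 CPM (1.40 ± 0.26, adjusted p = 0.0017), and at 1.13 (adjusted p = 0.0035) under that gate. *Bhlha15*, the acinar factor Mist1, was at 1.76 ± 0.29 (adjusted p = 0.00084) and at 0.15 (adjusted p = 0.85) under it. Of the 1446 genes called in either direction, 826 were called the same way under the 0.5% gate.

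Acinar cells (436, 1137 and 1360) were barcodes with *Pigr*, *Prom2* or *Bhlha15* UMIs and without duct or myoepithelial markers. As in duct cells, the further genes of the member rule were limited and *Ltf* was not. Of 9227 genes tested, 1468 (15.9%) were higher in the members and 1397 (15.1%) lower. Most tested genes of the regulator, transport, keratin and redox lists were higher in the members, and most of the acinar secretory machinery list were lower, the latter not with total-UMI scaling. The median of all genes was at -0.02, and at 1.42 with total-UMI scaling, so that 7207 genes were then higher and 74 lower. Of the 2865 calls, 2628 were made the same way under the 0.5% gate, where 1492 of 9269 genes were higher and 1568 lower.

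Regulators separated the members from acinar cells: 13 of 15 were higher and 1 lower, both with all members and under the 0.5% gate, and 14 were higher and none lower with total-UMI scaling. *Tfcp2l1* was at 581, 294 and 254 CPM against 6.98, 2.29 and 1.61 (6.60 ± 0.20, adjusted p = 4.2e-09). *Barx2*, a homeobox factor of LG branching, was at 210, 222 and 180 against 7.76, 2.29 and 3.87 (5.37 ± 0.26, adjusted p = 1.3e-07), and *Runx1* rose by 3.02 ± 0.20 (adjusted p = 1.3e-06) over 56.3, 21.6 and 24.5 CPM. *Tspan8*, a surface tetraspanin, was at 122, 74.5 and 62.0 CPM and had 4 UMIs in all acinar cells (7.15 ± 0.44, adjusted p = 8.2e-07).

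*Sox10*, a factor of LG acinar and myoepithelial lineages, was low but higher than in acinar cells, at 20.3, 22.3 and 31.9 against 1.55, 0.328 and 0.646 CPM (4.75 ± 0.53, adjusted p = 6.0e-05). *Sox9* was higher by little (0.51 ± 0.12, adjusted p = 0.0089, over 232, 224 and 215 CPM), and *Pax6* likewise (0.77 ± 0.12, adjusted p = 0.00054). Both were below 0 when every cell was thinned to 1000 UMIs. *Etv1*, an ETS factor, was the regulator that fell, from 212, 249 and 242 CPM to 40.6, 119 and 92.0 (-1.59 ± 0.20, adjusted p = 0.00013).

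In the transport list 13 of 18 genes were higher than in acinar cells and none lower, with 18 higher under total-UMI scaling. *Slc12a2* was at 56.6, 5.57 and 10.0 CPM in acinar cells (4.36 ± 0.44, adjusted p = 2.8e-05). *Atp1b1*, which encodes a beta subunit of an ion-transporting ATPase, rose from 18.2, 1.64 and 1.61 to 548, 410 and 331 CPM (6.05 ± 0.41, adjusted p = 1.7e-06). *Car12*, a carbonic anhydrase, was at 260, 140 and 133 against 4.66, 1.64 and 1.29 CPM (6.01 ± 0.22, adjusted p = 1.9e-08). *Aqp5* stood at 693, 809 and 753 CPM in acinar cells, so its values overlapped (-0.10 ± 0.11, adjusted p = 0.55), and with total-UMI scaling it was at 1.35.

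Mucosal genes were 5 of 8 higher and 1 lower, the lower one being *Agr2* (1247, 1488 and 1711 against 3332, 3654 and 3621 CPM, -1.39 ± 0.12, adjusted p = 9.8e-06), whose sign turned with total-UMI scaling. *Pglyrp1* was at 4.27, 5.57 and 7.10 CPM in acinar cells (6.75 ± 0.16, adjusted p = 2.3e-09), and *Lcn2* at 1.94, 32.8 and 22.6 against 223, 488 and 413 in members (4.30 ± 0.31, adjusted p = 3.0e-06). All 5 tested genes of the keratin list were higher, with *Krt7* at 304, 201 and 190 against 1.55, 2.29 and 2.91 CPM (6.45 ± 0.24, adjusted p = 1.8e-08). *Krt8* (1.49 ± 0.12) and *Krt18* (1.61 ± 0.12) differed by less.

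Acinar secretory machinery was lower for 13 of the 14 genes tested, among them the factor *Xbp1* and the cytochrome P450 *Cyp2b10*, and higher for none, which turned to 6 higher and 1 lower with total-UMI scaling and stayed at 13 lower under the 0.5% gate. *Qsox1*, an oxidase that forms disulfide bonds, was at 172, 235 and 272 CPM against 496, 938 and 938 (-1.92 ± 0.13, adjusted p = 1.7e-06). *Edem2*, which marks misfolded glycoproteins, was at 128, 101 and 128 against 375, 393 and 374 (-1.82 ± 0.14, adjusted p = 4.4e-06). The chaperone *Hspa5* was lower by 1.31 ± 0.12 (log2 fold change -1.31, adjusted p = 1.5e-05), and its value was above 0 with total-UMI scaling. Without the low-share members these 3 genes stood at -2.999, -3.03 and -1.77.

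Redox genes were 12 of 18 higher and none lower, with 17 higher under total-UMI scaling. *Mgst1*, a membrane glutathione transferase, was at 112, 190 and 130 against 0.776, 0.328 and 0.969 CPM (7.44 ± 0.30, adjusted p = 3.0e-08), and *Gpx2*, a glutathione peroxidase of mucosal epithelia, at 139, 529 and 163 against 2.72, 3.28 and 1.29 (6.65 ± 0.26, adjusted p = 2.7e-08). Of 15 iron genes 3 were higher and 2 lower, or 13 and none with total-UMI scaling. *Fth1* was higher (1.27 ± 0.13, adjusted p = 3.0e-05) and the transferrin receptor *Tfrc* lower, at 13.5, 52.1 and 71.4 against 104, 176 and 149 CPM (-1.74 ± 0.24, adjusted p = 0.00027).

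Of 7 chemokines and epithelial cytokines 5 were higher and 1 lower, or 7 higher with total-UMI scaling. *Cxcl16* was at 54.1, 61.4 and 82.7 CPM against 10.1, 9.17 and 7.75 (2.77 ± 0.26, adjusted p = 1.9e-05), and *Csf1*, the macrophage growth factor, at 16.9, 24.2 and 37.6 against 3.10, 2.95 and 2.58 (3.06 ± 0.43, adjusted p = 0.00028). Antigen presentation genes were 3 of 10 higher, but none of 6 higher and 2 lower after thinning to 1000 UMIs, where 197 of all 1039 genes were higher and 223 lower. Among the former was the immunoproteasome subunit *Psmb8* (64.2, 68.9 and 115 against 4.66, 8.52 and 12.3 CPM, 3.13 ± 0.22, adjusted p = 2.7e-06). The stress list, with 11 of 16 higher, gave no fixed direction, since after thinning to 1000 UMIs 1 was higher and 6 were lower. The same holds for nuclear genes of oxidative phosphorylation, with 1 higher and 6 lower of 15, but 4 and none of 10 after thinning and 15 and none with total-UMI scaling.

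By the rule on the largest changes, *Tac1*, which encodes substance P, was at 54.1, 85.6 and 93.9 CPM in members without a UMI in acinar cells, and had 1 UMI in duct cells. The potassium channel *Kcnj15* (60.8, 35.4 and 47.0 CPM), the proton pump subunit *Atp6v1b1* (27.0, 18.6 and 18.8 CPM) and the epithelial cytokine *Tslp* (20.3, 27.9 and 15.0 CPM) were also without a UMI in acinar cells. Among the largest declines were *Slc38a1*, a glutamine carrier (23.7, 16.8 and 7.51 against 59.0, 106 and 86.5 CPM, -2.67 ± 0.30, adjusted p = 6.0e-05), and *Rab26*, a GTPase of secretory granules (10.1, 5.59 and 3.76 against 31.0, 35.4 and 33.9 CPM, -2.63 ± 0.37, adjusted p = 0.00029).

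**Figure D4:**
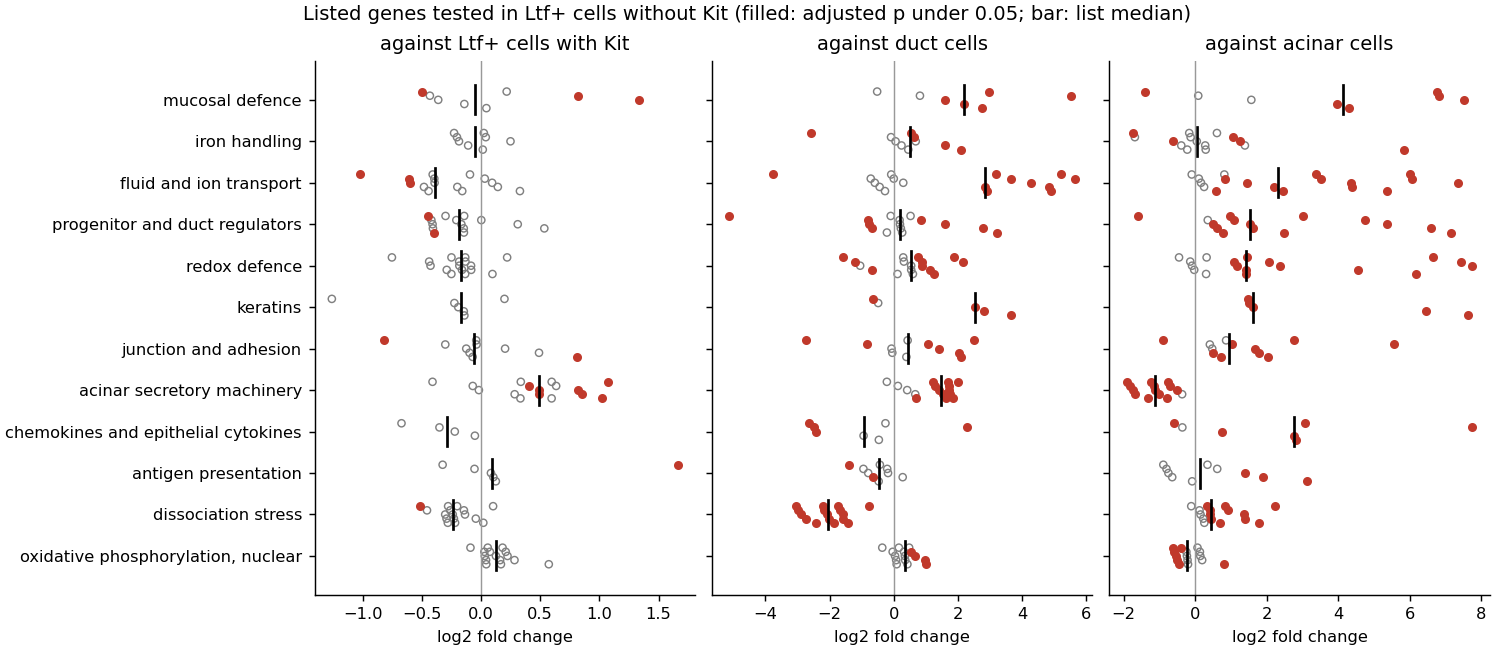
Log2 fold change of each tested gene of 12 lists (rows) in members against *Kit*+, duct and acinar cells (panels with axes of different range), where filled points passed edgeR at an adjusted p under 0.05 and bars are list medians. All 16 stress genes are lower against duct cells, and 13 of 14 acinar machinery genes are lower against acinar cells.

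Against *Ltf*+ cells with *Kit* (51, 79 and 63) the members differed in few genes. Of 4142 tested, 126 (3.04%) were called, 100 (2.41%) higher and 26 (0.628%) lower, and 38 of them were called the same way under the 0.5% gate, where 38 of 3735 genes were higher and 9 lower. With all cells thinned to 1000 UMIs none passed, although 35 genes had an unadjusted p under 0.05, and DESeq2 called 31, of which 30 were higher and 1 lower. Without the female library edgeR called 32, of which 31 were higher and 1 lower. Of the 26 genes lower in members, 1 was thus still called in either setting, the secreted carbonic anhydrase *Car6*, named after its values were seen. *Car6* was at 970.0, 2718 and 1178 CPM against 4358, 7167 and 3492 (-1.63 ± 0.14, adjusted p = 1.1e-06), at -0.56 with scored doublets removed and at 0.60 with all cells thinned before gating. Summed markers of acinar cells high in *Car6*, a list that holds *Car6*, were also lower in members in each library. They were at 5634, 5673 and 4332 CPM against 6362, 10765 and 6341 in *Kit*+ cells, and their part was not tested. Scaling to total UMIs put the median of all genes at -0.94 and gave 13 higher and 2973 lower. *Kit* detection depends on depth and on the cell, so this comparison holds the split between deep and shallow cells as well as that between cells with and without the receptor.

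Several leading genes of the comparisons above did not pass the test here. *Pglyrp1* was at 475, 766 and 804 CPM in *Kit*+ cells (0.05 ± 0.10, adjusted p = 0.90), *Wfdc18* at 148403, 108186 and 105068 (-0.14 ± 0.26, adjusted p = 0.87), *Krt18* at 2598, 2974 and 3016 (-0.15 ± 0.12, adjusted p = 0.63) and *Sox9* at 529, 357 and 335 (-0.14 ± 0.12, adjusted p = 0.65). None of 8 iron, 16 redox, 6 keratin, 15 oxidative phosphorylation and 4 chemokine genes passed the test. A p that misses the threshold does not show equal levels.

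Genes lower in members included ion transporters and the desmosome gene *Dsp*, none of them called without the female library. *Slc12a2* was at 433, 369 and 402 CPM against 767, 566 and 576 in *Kit*+ cells (-0.60 ± 0.11, adjusted p = 0.0028), but at -0.32 (adjusted p = 0.18) under the 0.5% gate. *Atp1b1* was at 548, 410 and 331 against 941, 638 and 483 (-0.60 ± 0.10, adjusted p = 0.0022) and at -0.43 (adjusted p = 0.0084) under it. In all, 3 of 15 transport genes and 2 of 14 regulators were lower, or 2 and 0 under that gate. Of 10 junction genes 1 was higher and 1 lower, or none and 1 under the gate. The higher one was *Cldn10*, a claudin of tight junctions, at 304, 642 and 584 against 101.5, 437.8 and 469.2 CPM (0.81 ± 0.16, adjusted p = 0.0071), which was at 0.42 (adjusted p = 0.32) under the gate, at -0.033 with total-UMI scaling and at -0.14 after thinning to 1000 UMIs. *Dsp* was at 213, 201 and 199 against 430, 366 and 335 CPM (-0.82 ± 0.12, adjusted p = 0.00054), and at -0.67 (adjusted p = 0.00019) under the gate.

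*Sult1d1* was at 193, 171 and 124 against 451, 395 and 188 CPM (-1.02 ± 0.14, adjusted p = 0.00020), *Fam13a* at 43.9, 31.7 and 60.1 against 129, 124 and 121 (-1.42 ± 0.25, adjusted p = 0.0024) and the chromatin-associated gene *Emsy* at 16.9, 14.9 and 15.0 against 56.2, 57.1 and 60.3 (-1.81 ± 0.35, adjusted p = 0.0057). These 3 were still lower under the 0.5% gate, at -0.74, -1.13 and -1.52. With sums thinned to 1000 UMIs per cell *Sult1d1* was at -0.25 (adjusted p = 0.86). In each library the members held the lower value.

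Genes higher in members included acinar machinery, 7 of 16, of which 1 was called under the 0.5% gate and none, with 4 lower, with total-UMI scaling. Without the female library, 31 of the 100 higher genes were still called. Of 18 genes named for this comparison, *Pglyrp1*, *Wfdc18*, *Krt18* and *Sox9* had no call to lose. Among the rest, 11 lost the call without the female library, higher and lower ones among them. *Pigr* was at 281, 156 and 222 against 90.6, 90.4 and 107 CPM (1.34 ± 0.18, adjusted p = 0.00020), and at 0.52 (adjusted p = 0.84) under the gate. *Agr2* (0.82 ± 0.10, adjusted p = 0.00010) was at 0.26 (adjusted p = 0.39) under it, and *Ssr4*, a subunit of the translocon-associated complex, at 0.82 ± 0.11 and at 0.39 (adjusted p = 0.037).

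A few genes rose more without the low-share members. *Cd74*, the invariant chain of MHC class II, was at 54.1, 50.3 and 192 against 7.25, 4.76 and 107 CPM (1.66 ± 0.37, adjusted p = 0.014), and at 2.79 (adjusted p = 2.3e-07) under the 0.5% gate. *Apoe*, a lipid carrier of macrophages and epithelia, was at 274, 246 and 280 against 90.6, 138 and 248 CPM (0.97 ± 0.20, adjusted p = 0.0071), and at 1.82 under the gate. Both are also macrophage transcripts, and the leukocyte marker sum in members is the 57.5, 33.5 and 122 CPM given above, against 9.06, 19.0 and 87.1 in *Kit*+ cells. It was thus higher in members in each library, as *Cd74* and *Apoe* were, with its part in this difference not tested. *Hmox2*, a constitutive heme oxygenase, was at 64.2, 44.7 and 52.6 against 23.6, 9.52 and 26.8 CPM (1.52 ± 0.36, adjusted p = 0.023), and at 1.60 under the gate.

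The study separates *Ltf*+ cells by *Aldh1a1*, which encodes retinaldehyde dehydrogenase and marks stem-like cells in several epithelia. At least 1 UMI was present in 36 of 625 members (8, 13 and 15). After thinning, it was found in 2.88% ± 1.33 of members, against 11.8% ± 3.29 of fibroblasts and 0.422% ± 0.731 of leukocytes. Its level in members was 33.8, 31.7 and 30.1 CPM, with 12.3, 0 and 20.9 in duct cells.

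Members with *Aldh1a1* differed from the 589 without it in 63 of 2549 genes (2.47%), 16 (0.628%) higher and 47 (1.84%) lower. DESeq2 still called 0 of these 16 higher genes and 32 of the 47 lower ones. *Car2*, a carbonic anhydrase, was at 145, 413 and 93.5 against 70.5, 31.8 and 20.0 CPM (2.22 ± 0.50, adjusted p = 0.013) and *Tspan8* at 232, 236 and 218 against 88.1, 63.6 and 52.0 (1.57 ± 0.38, adjusted p = 0.021). *Gpx2* was higher by 1.27 ± 0.24 (adjusted p = 0.0033) and *Slc12a2* by 1.00 ± 0.22 (adjusted p = 0.0084). Lower genes with all members included *Dnase1*, a tear nuclease (493, 265 and 1341 against 4811, 2256 and 2441 CPM, -2.47 ± 0.34, adjusted p = 0.00057) and *Hp*, haptoglobin (-2.14 ± 0.32, adjusted p = 0.00060), a plasma protein that binds free hemoglobin.

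Of the 63 called genes, 51 were also tested under the 0.5% gate, 50 of them in the same direction. Tear products took 19.7%, 23.2% and 66.7% of the UMIs of members with *Aldh1a1*, against 75.0%, 69.3% and 75.5% of those without. Under that gate 1 of the 63 was still called, the chaperone *Clu*, at 29.0, 88.5 and 93.5 against 238, 231 and 284 CPM (-2.16 ± 0.42, adjusted p = 0.0039, and -2.56, adjusted p = 0.025, under the gate). Without the female library edgeR called 11, and without male 1 it called 0, with 212 genes at an unadjusted p under 0.05. With total-UMI scaling the median of all genes was at 1.32, and 885 genes were higher and 6 lower. *Tspan8* was at 1.07 (adjusted p = 0.23), *Slc12a2* at 0.54 (adjusted p = 0.39) and *Gpx2* at 0.86 (adjusted p = 0.19) under the gate. *Dnase1* was at -0.93 (adjusted p = 0.12) and *Hp* at -0.44 (adjusted p = 0.73) under it, and *Dnase1* was at -0.79 (adjusted p = 0.32) when the sums were thinned to 1000 UMIs per cell. *Car2* was not tested under the gate.

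Among single members, *Car2* was found in 4 of the 8 with *Aldh1a1* and in 23.7% of the rest in the female library, in 46.2% and 4.89% in male 1 and in 20.0% and 2.81% in male 2. *Tspan8* was found in 87.5% and 31.6%, 38.5% and 11.3%, and 33.3% and 8.07%, and *Runx1* in 100% and 73.7%, 53.8% and 34.6%, and 60.0% and 28.4%. The share was higher with *Aldh1a1* in each library for these 3 genes. The median UMI count of cells with and without *Aldh1a1* was 9624 and 6830 in the female library, 2362 and 2400 in male 1 and 3254 and 2213 in male 2, and these shares were not thinned. *Sox10* was found in 31 members, of which 2 also held *Aldh1a1*.

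Between the single female library and the male ones, members were compared by size alone, with a level at least 4-fold above or below both male libraries and at least 20 UMIs on the higher side. By this rule 18 genes were higher in the female members, 5 of them tear products, and 32 were lower, 16 of them tear products. *Slc27a2*, a fatty acid transporter and acyl-CoA synthetase, was at 10.1 CPM (exact Poisson 95% interval 2.09 to 29.6) in the female members and at 201 (165 to 243) and 218 (180 to 261) in the male ones. *Ly6f*, an Ly6 family gene, was at 3.38, 249 and 458 CPM, and *Mrap*, a melanocortin receptor accessory gene, at 0, 104 and 156. All 3 genes were also lower in female than in male acinar cells, where *Slc27a2* was at 45.4, 835 and 718 CPM.

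Under the 0.5% gate, a setting chosen for this comparison after seeing the data, 4 of the 13 higher and 9 of the 16 lower genes outside the tear products met the rule. *Slc27a2* was then at 4.99, 64.8 and 71.6 CPM, *Ly6f* at 0, 67.5 and 106, and *Mrap*, at 0, 51.3 and 59.2 with at most 19 UMIs per library, was no longer on the list. With cells thinned to 1000 UMIs before gating, 2 of the 13 higher and 4 of the 16 lower genes met the rule. *Slc27a2* was there at 16.2, 53.1 and 63.0 CPM and *Ly6f* at 0, 33.2 and 105, and neither was on the list, nor was *Mrap*.

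Further genes named by this rule were also measured in acinar cells. *Thbs1*, thrombospondin, was at 10.1, 104 and 88.3 CPM in members and at 1.16, 2.95 and 3.55 in acinar cells, and under the 0.5% gate at 9.99, 132 and 121 in members. With cells thinned to 1000 UMIs it was at 0, 113 and 112 CPM in members, with 17 and 16 UMIs in the male libraries, and left the list. *Phyh*, a peroxisomal hydroxylase, was at 1693, 168 and 336 CPM in members and higher in acinar cells, at 8066, 605 and 818. Without the low-share members, whose profile is close to that of acinar cells, it was at 350, 86.4 and 137 CPM and no longer 4-fold above both male libraries. *Krt5* (77.7, 13.0 and 13.1 CPM) and *Krt19* (98.02, 13.03 and 24.42 CPM), both duct keratins, were higher in the female members, in which 25 of 46 cells were scored as doublets and duct cells were common in the suspension. With scored doublets removed *Krt19* was at 155.7, 13.95 and 25.97 CPM, and *Krt5*, at 53.9, 12.0 and 12.0, was no longer on the list. Under the 0.5% gate neither met the rule, with *Krt19* at 34.96, 18.90 and 40.47 CPM. The part of free RNA and sequencing core in these differences was not tested.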

How the data were processed

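The deposited values are raw UMI counts, whole numbers for each gene in each barcode of a 10x 3' library. The submitters' processing notes name Cell Ranger 6.1.2 and mm10; the annotation release is not given in the sources used here. Barcodes with over 500 UMIs, over 200 genes and under 15% mitochondrial UMIs were kept. Doublets were scored but not removed, except in an alternative setting. Counts were summed per library and cell group and tested with edgeR 4.0.16 (R 4.3.3, TMM, filterByExpr, quasi-likelihood, library as block); both groups of a pair come from 1 cell suspension, which is the source of the pairing. DESeq2 1.42.0 was an alternative. Other steps used numpy 2.4.6, scipy 1.17.1 and scanpy 1.11.5. Genes were named from 12 lists and, per comparison, from the 10 largest called changes in each direction with at least 20 UMIs and 1 direction in all 3 libraries, leaving out tear-product, ribosomal and mitochondrial genes. *Apoe* and *Car6* were named after their values were seen. The members and lists were chosen with earlier results of these data known. The test was checked on simulated counts with known changes. It called 31.1% to 58% of 2-fold changes and 85.1% to 100% of 4-fold changes, depending on the comparison. Per comparison, these counts were drawn from 1 gene profile with 1 level of spread, so they lack the differences between the real libraries. Intervals cover counting error only.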

Additional observations from a re-analysis of the deposited data

How the results depend on the processing

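The members were 3.19% of kept barcodes, and 2.52% when 0.5% of a cell's UMIs had to come from the *Ltf*+ genes or 2.48% with at least 5 UMIs for each criterion. In place of 126, 1446, 2865 and 63 genes called against *Kit*+, duct and acinar cells and by *Aldh1a1*, DESeq2 called 31, 732, 1605 and 41. Thinning every cell to 1000 UMIs before gating gave 0, 417, 420 and 1, and gating first and thinning the sums, a setting chosen after seeing the data, gave 25, 443, 898 and 7. The thinned sums hold fewer UMIs and fewer genes tested. Scaling to total UMIs gave 2986, 2749, 7281 and 891. The 0.5% gate gave 47 against *Kit*+ cells and 1 by *Aldh1a1*. For *Aldh1a1*, removing scored doublets gave 41 and leaving out tear-product and mitochondrial genes 39. The cause of these shifts was not tested.

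Leaving out each library in turn gave 32 to 171 genes against *Kit*+ cells, 783 to 1383 against duct cells, 1983 to 3278 against acinar cells and 0 to 61 by *Aldh1a1*. The lowest counts against *Kit*+ and duct cells came without the female library. By *Aldh1a1*, edgeR called 11 without it and 0 without male 1, where 212 genes had an unadjusted p under 0.05. Without the library block that pairs the groups, edgeR called 0 genes against *Kit*+ cells (375 at an unadjusted p under 0.05) and 0 by *Aldh1a1* (283), and 1742 and 1993 against duct and acinar cells, among them 1292 and 1982 of the original calls. The lists of genes by size between female and male members went from 50 to 26 after thinning and to 34 under the 0.5% gate, and the median share of members with a UMI of a listed gene from 6.35% at 1000 UMIs to 11.8% at 2000 and 25.1% without thinning.

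Of 1400 alternative values of named genes, 1226 stayed on the same side of the threshold, and 149 lost and 10 gained the call. Any sign change of a gene called in neither fit is counted among the 1226. A further 15 values changed sign with a call in the main or the alternative fit. With total-UMI scaling these were *Pglyrp1* (-0.86), *Agr2* (-0.088), *Ssr4* (-0.095) and *Cldn10* (-0.033) against *Kit*+ cells, *Runx1* (-0.81), *Ehf* (-0.10) and *Fth1* (-0.42) against duct cells, and *Agr2* (0.049), *Aqp5* (1.35) and *Hspa5* (0.13) against acinar cells. *Pigr* against duct cells was at -0.21 under the 0.5% gate, and after thinning *Cldn10* and *Car6* against *Kit*+ cells were at -0.14 and 0.60 and *Sox9* and *Pax6* against acinar cells at -0.25 and -0.18. The *Aldh1a1* comparison rests on 8, 13 and 15 cells with the transcript, and with 1 female library no statement on sex can be tested.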
